A study of Mus musculus with 7 samples.

Results

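The cornified envelope genes encode the proteins that granular-layer keratinocytes lay down under the plasma membrane and cross-link into the tough shell of dead surface cells, together with the enzymes, inhibitors, adhesion proteins and transcription factors of that late step. A list of 45 such genes was read in mouse primary keratinocytes, and 35 of them had at least 1 probe set annotated to that gene alone, out of 12393 genes with such a probe set on the array. For each gene the probe set with the highest mean was taken. The other 10 members (Sprr2a1, Sprr2b, Sprr4, Lce1c, Lce1m, Sbsn, Grhl3, Dsg1a, Cnfn and Stfa1) were not analysed here, and the probe sets of Sprr2a1 were shared with near-identical Sprr2a copies and were not used.

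The 5 arrays of the silenced group came from cells transfected with small interfering RNA (siRNA) against Trp63 (replicates 1, 2, 3, 4 and 7), and the 2 control arrays from cells given a non-specific siRNA (replicates 5 and 6). The transfection was transient, the cells were taken 48 h later, and the labels give no strain, age, culture medium or siRNA sequence. Nothing in the labels ties a replicate to its own culture or animal, so the spread behind each p-value may be technical. Trp63 encodes p63, the transcription factor that stratified epithelia need to form and to keep their basal layer, and the series asks what its loss does to the messenger RNAs of these cells.

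The epidermis builds the envelope in stages. In the spinous layer, involucrin, envoplakin and periplakin form a first scaffold, and transglutaminases join it together. In the granular layer, loricrin, the small proline-rich (SPRR) proteins and the late cornified envelope (LCE) proteins are added, while filaggrin bundles the keratin filaments. Most of these small envelope proteins are encoded side by side on mouse chromosome 3, in the epidermal differentiation complex. From that textbook order 8 measured members were classed as early, 23 as late and 4 as neither.

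Trp63 itself read 541, 519, 457, 504 and 492 in the silenced arrays, against 1447 and 1683 in the control arrays (log2 difference -1.61, SE 0.088, adjusted p = 1.0e-05). All 5 silenced arrays lay below both controls. Its other 2 probe sets, with means of 163 against 235 and 139 against 209 in silenced against control arrays, fell less, by differences of -0.49 (SE 0.073) and -0.54 (SE 0.056). Median intensity over all probe sets was 207 to 213 in the silenced arrays and 211 and 214 in the control arrays, on a scale whose lowest values were about 58.5 to 60.7. Of 14 listed keratinocyte markers 13 were measured, and 11 of those fell and 1 rose, against 8.16% and 7.83% of all probe sets. Trp63, the target of the siRNA, is on that list and is 1 of the 11. The basal keratin genes Krt14 and Krt5 averaged 14825 against 17063 and 11602 against 14460 in silenced against control arrays. The labelled cell type was thus present in both groups. Melanocyte genes were also present: the summed intensity of 10 of them was 7229 to 12526 in the silenced arrays and 7077 to 10594 in the control arrays, and none passed the test. In bulk RNA, fewer cells of a type and less RNA per cell cannot be told apart.

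After Trp63 silencing 16 of the 35 measured members were higher, 4 were lower and 15 missed the threshold (limma, adjusted p under 0.05 over all 22626 probe sets). Differences are on the log2(intensity + 16) scale throughout, silenced minus control, and their median over the 35 members was 0.42. Over the whole array 7.83% of probe sets were called higher and 8.16% lower. All but 1 of the members that rose (Ppl) were late genes. The 23 late members comprised 15 that rose, 2 that fell and 6 that missed the threshold, and their median difference was 0.64. The 8 early members comprised 1 that rose, 2 that fell and 5 that missed it, and their median was -0.025, beside -0.034 over all probe sets. None of the 4 members classed as neither was called. The difference between early and late members was not tested. Of the late members 10 were LCE genes, which gave 8 of the late rises and whose probe sets may share signal. In 15 members all 5 silenced arrays lay above both controls, as did 14.2% of all probe sets, and in 5 all silenced arrays lay below both controls, as did 22.4% of all probe sets.

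**Figure D1:**
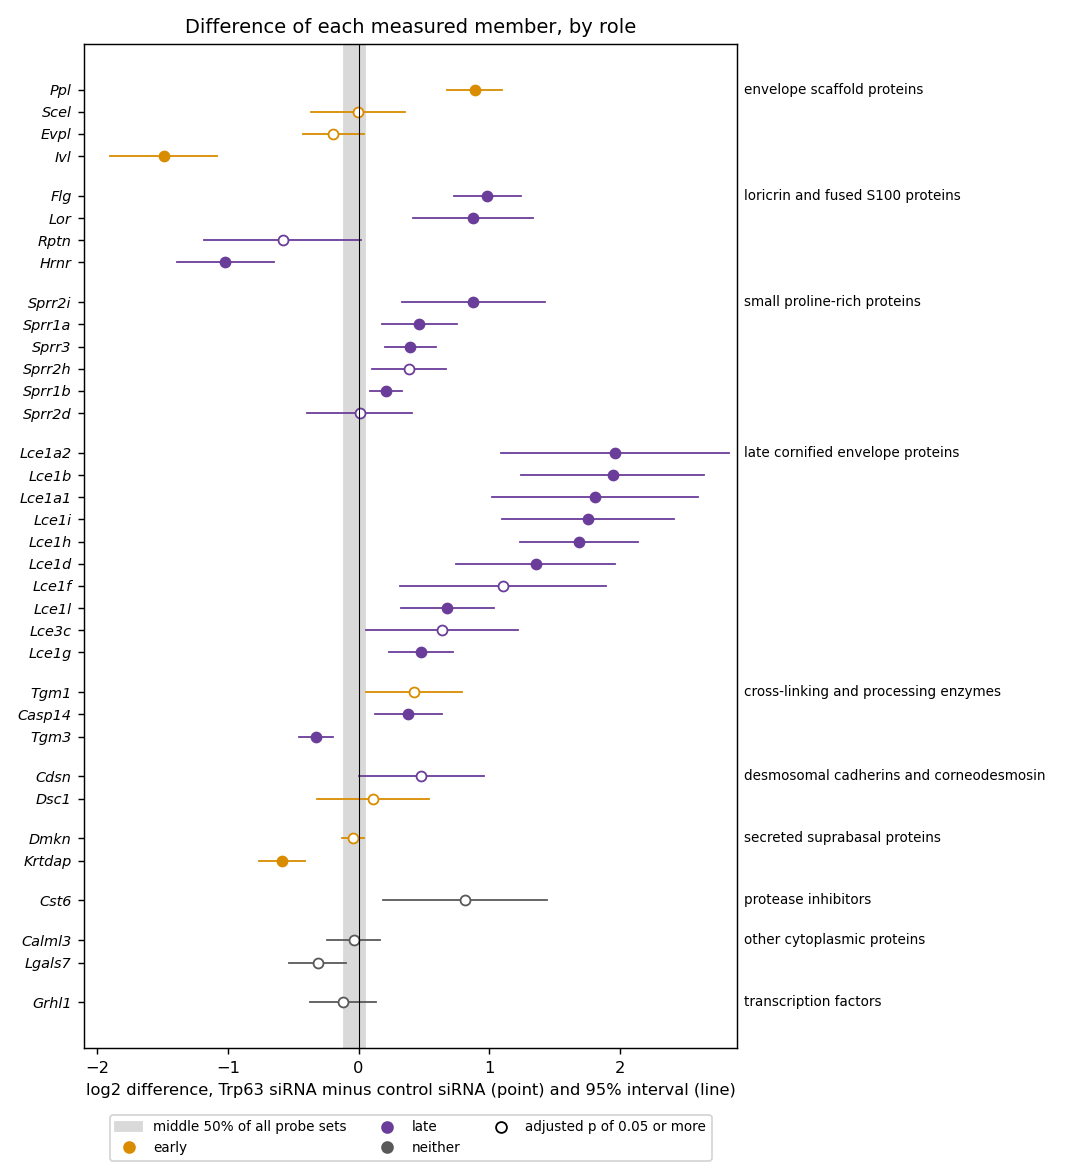
Log2 difference between Trp63 siRNA and control siRNA for each of the 35 measured members, grouped by role. Points are limma estimates on the log2(intensity + 16) scale and lines their 95% intervals, filled points passed the test, colours mark early, late and neither, and the grey band holds the middle 50% of all probe sets. The LCE genes lie at the right, up to 1.96, and Ivl at the left, at -1.49.

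The count of rises depended on which control was used. Without control 6 only 4 members rose (Flg, Ppl, Lce1h and Lce1i) and 4 fell (Ivl, Hrnr, Krtdap and Rptn, but not Tgm3), against 3.43% and 2.64% of all probe sets. The single control left in such a fit is assumed to vary like the silenced arrays. Without control 5, 19 rose and 4 fell, against 4.95% and 3.94% of all probe sets. In silenced arrays 1 and 4 and both controls, which had the lower level of spike control RNA, 10 rose and 2 fell, against 2.37% and 1.09% of all probe sets. With probe sets under the 50th percentile of mean intensity left out, 30 members remained, of which 13 rose and 2 fell, against 13.9% and 13.2% of the probe sets kept. The controls themselves differed: control 5 read higher than control 6 in 33 of the 35 members, with a median ratio of 1.44, whereas this held for 57.5% of all probe sets, with a median ratio of 1.01. Array 3 had the lowest of the 5 silenced values in 28 of the 35 members, compared with 23.9% of all probe sets. RNA quality also moved with the groups. The ratio of 3′ to 5′ signal of beta-actin was 1.14 to 1.25 in the silenced arrays and 1.30 and 1.36 in the controls, and that of Gapdh was 0.905 to 0.938 in the silenced arrays and 0.980 and 0.983 in the controls. Its part in the results was not tested.

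The promoters of the members that the results turn on are shown because 7 of the 8 Lce1 promoters at hand share a stretch there. Each stretch runs from 120 bases before to 20 bases after the gene start and is taken from RefSeq (GRCm38.p6). Capitals mark a match to the AP-1 motif TGANTCA, to TATAAA, or to ACTGTCTCAC, the 10-base stretch held by the most Lce1 promoters, which was looked for after these promoters had been read. Ivl lies at chr3:92573716-92573855 (minus strand), Krtdap at chr7:30787785-30787924 (plus strand), Lor at chr3:92083123-92083262 (minus strand), Sprr1a at chr3:92485862-92486001 (minus strand), Lce1a1 at chr3:92648288-92648427 (minus strand), Lce1b at chr3:92656907-92657046 (minus strand), Lce1h at chr3:92765046-92765185 (minus strand) and Lce1i at chr3:92778880-92779019 (minus strand).
Ivl: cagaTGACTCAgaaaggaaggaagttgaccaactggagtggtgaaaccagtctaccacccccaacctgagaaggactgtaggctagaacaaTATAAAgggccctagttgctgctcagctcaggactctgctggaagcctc
Krtdap: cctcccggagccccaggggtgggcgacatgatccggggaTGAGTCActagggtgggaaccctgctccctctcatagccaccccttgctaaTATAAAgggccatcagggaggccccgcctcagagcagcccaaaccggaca
Lor: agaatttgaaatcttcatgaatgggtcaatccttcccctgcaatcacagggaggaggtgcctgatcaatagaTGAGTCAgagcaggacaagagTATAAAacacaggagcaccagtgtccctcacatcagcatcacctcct
Sprr1a: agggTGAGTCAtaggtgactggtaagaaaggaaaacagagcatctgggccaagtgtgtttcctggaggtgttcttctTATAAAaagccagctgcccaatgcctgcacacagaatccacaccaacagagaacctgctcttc
Lce1a1: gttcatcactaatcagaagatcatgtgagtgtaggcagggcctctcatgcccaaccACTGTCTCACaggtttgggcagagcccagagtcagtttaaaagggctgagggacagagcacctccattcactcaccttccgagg
Lce1b: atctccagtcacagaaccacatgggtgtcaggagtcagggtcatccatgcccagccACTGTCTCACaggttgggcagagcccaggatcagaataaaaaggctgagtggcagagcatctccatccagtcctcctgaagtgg
Lce1h: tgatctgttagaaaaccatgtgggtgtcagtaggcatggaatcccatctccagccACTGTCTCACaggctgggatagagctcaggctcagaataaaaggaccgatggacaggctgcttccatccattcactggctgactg
Lce1i: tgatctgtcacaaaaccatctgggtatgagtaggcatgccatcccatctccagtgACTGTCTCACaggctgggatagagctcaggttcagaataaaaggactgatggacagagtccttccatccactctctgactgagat

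Promoter windows of 300 bases were at hand for 38 of the 45 members and for 27025 genes in all, and motifs were searched on both strands. Among the members of the complex outside the LCE family, 10 of 14 held TGANTCA and 12 of 14 held TATAAA, compared with 8.97% and 15.7% of all genes. None of the 11 LCE members held TGANTCA, and 2 of 11 held TATAAA (Lce1d and Lce1m). ACTGTCTCAC was present in 7 of the 8 Lce1 promoters that had a measured gene (all but Lce1l) and in no other member. It was picked because these promoters share it, so that count follows from the choice. Its share of all genes, these 7 included, was 0.17%. It stood 64 or 65 bases before the start in the stretches printed above. Aligned over the whole window, the 7 promoters with the stretch were 63.2% to 86.0% identical to each other (21 pairs, median 65.9%). Lce1l, which also rose, was 50% to 52% identical to those 7. Lce1 promoters and that of Ivl or Lor were 44.9% to 52.3% identical (16 pairs), and other promoters were not aligned. TGANTCA occurred in 5 of 15 members that rose, in 2 of 4 that fell and in 5 of 10 that were not called, and TATAAA in 7 of 15, 4 of 4 and 3 of 10 of them. The p63 half-site was held by 5 of 38 members and by 9.55% of all genes, Klf GGGTGTG by 4 of 38 and 9.05%, CCAAT by 13 of 38 and 41.1%, the Grhl motif AACCNGTT by 1 of 38 and 2.35%, and AACCGGTT by no member and 0.174%. A match of letters in these windows is a description and no sign of binding.

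The scaffold proteins of the early envelope moved apart. Ivl, which encodes involucrin, read 235, 251, 186, 208 and 205 in the silenced arrays, against 830.1 and 485 in the control arrays (log2 difference -1.49, SE 0.18, adjusted p = 0.000773). All 5 silenced values lay below both controls, although the controls differed from each other by a factor of 1.71. Ppl, the gene of the plakin periplakin, went the other way with 1731, 1836, 1486, 1567 and 1544 in the silenced arrays, against 926 and 819.9 in the control arrays (log2 difference 0.89, SE 0.094, adjusted p = 0.000352), again without overlap. Evpl, which encodes the partner plakin envoplakin, averaged 922 ± 105 (SD, n = 5) in silenced arrays against 1051 ± 19.9 (SD, n = 2) in control arrays and did not pass (difference -0.19, 95% interval -0.43 to 0.045). Scel, the gene of the envelope precursor sciellin, did not pass either (difference -0.0057, 95% interval -0.37 to 0.35).

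Loricrin and the fused S100 proteins split into 2 that rose and 1 that fell. Flg, which encodes profilaggrin, the source of filaggrin, read 2647, 2832, 2586, 2944 and 2898 in the silenced arrays, against 1648 and 1181 in the control arrays (log2 difference 0.99, SE 0.11, adjusted p = 0.000554). Lor, the gene of the main protein of the mature envelope by mass, read 4345, 4035, 2728, 3875 and 3808 in the silenced arrays, against 2586 and 1577 in the control arrays (log2 difference 0.87, SE 0.20, adjusted p = 0.0188). Silenced array 3 was the lowest and came within reach of control 5, but the groups did not overlap. Another Lor probe set rose by 1.36 (SE 0.32, adjusted p = 0.0184), whereas the remaining one, below the array median in both groups, differed by 0.014 (adjusted p = 0.904). Hrnr, which encodes the filaggrin-like protein hornerin, read 92, 98.9, 85.5, 114 and 117 in the silenced arrays, against 282 and 172 in the control arrays (log2 difference -1.02, SE 0.16, adjusted p = 0.00321). Its silenced values lay below the median level of the array. Rptn, the gene of repetin, did not pass (difference -0.58, 95% interval -1.18 to 0.022). Its other 2 probe sets, below the array median in both groups, differed by -0.062 and -0.017 and were not called. At the probe set used, 3 of the 5 silenced Rptn values lay between the controls, which were 2.07-fold apart, and 2 lay below both. Its difference was -1.09 without control 6 (adjusted p = 0.0446) and -0.072 without control 5 (adjusted p = 0.907). Without control 6 the Lor difference was 0.52 and was not called (adjusted p = 0.185).

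**Figure D2:**
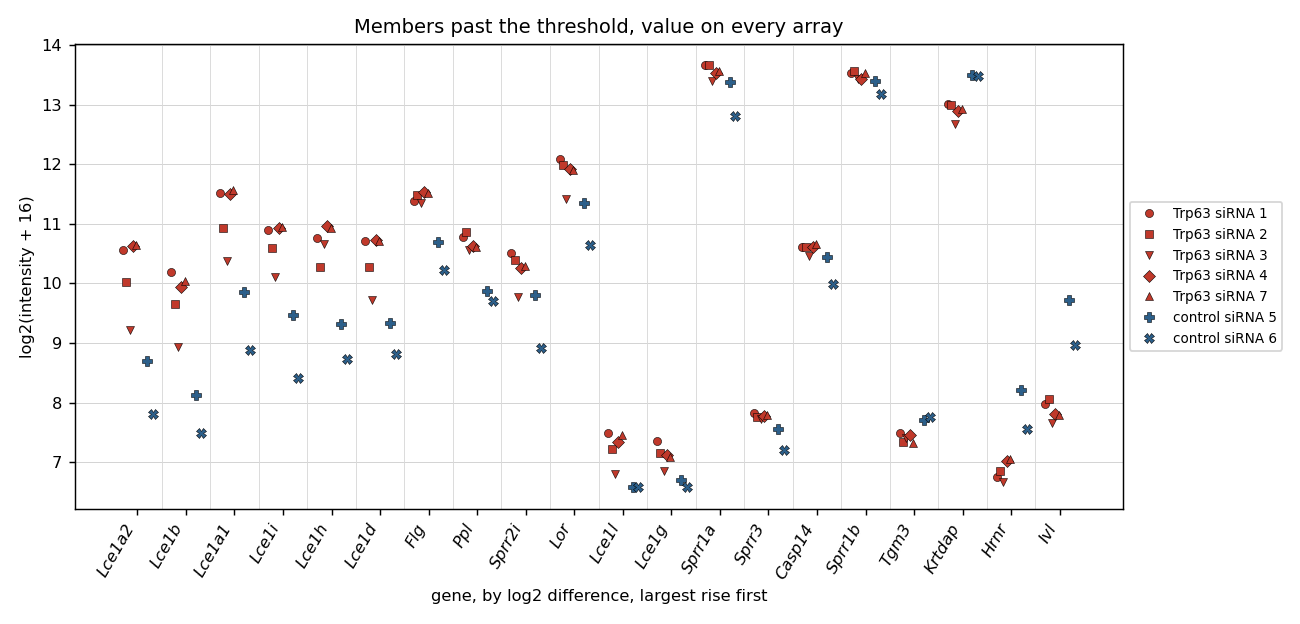
Log2(intensity + 16) on each of the 7 arrays for the 20 members that passed the test, ordered by difference, with the silenced arrays in red at the left of each gene and the controls in blue at the right. In the Lce1 genes silenced arrays 2 and 3 are the lowest of their group in most cases, and control 5 (plus) lies above control 6 (cross) in most genes.

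The 6 largest rises among the members were all in LCE genes. These small, cysteine-rich proteins are added late to the envelope. Among 10 measured members there were 8 rises, 2 genes short of the threshold and no fall, and the median difference was 1.52. Lce1a2 read 1488, 1029, 577, 1558 and 1589 in the silenced arrays, against 397 and 208 in the control arrays (log2 difference 1.96, SE 0.39, adjusted p = 0.00881). Lce1b read 1149, 793, 472, 970.5 and 1034 in the silenced arrays, against 264 and 163 in the control arrays (log2 difference 1.94, SE 0.31, adjusted p = 0.00313). In both, all silenced values exceeded both controls, and arrays 1, 4 and 7 were the highest. Lce1a1 read 2927, 1933, 1315, 2884 and 3009 in the silenced arrays, against 913 and 456 in the control arrays (log2 difference 1.81, SE 0.35, adjusted p = 0.00799), and its second probe set gave 1.83 (SE 0.34). Lce1i had 1892, 1531, 1090.1, 1942 and 1960.4 in the silenced arrays, against 689.7 and 326 in the control arrays (log2 difference 1.76, SE 0.29, adjusted p = 0.00376). Lce1h had 1718, 1224, 1594, 1980.3 and 1924 in the silenced arrays, against 622 and 410.3 in the control arrays (log2 difference 1.69, SE 0.20, adjusted p = 0.000646). Array 3 was not the lowest silenced array for Lce1h, unlike for Lce1i. Lce1d rose by 1.35 (SE 0.27), with 1665, 1229, 831, 1672 and 1665 in the silenced arrays, against 629 and 436 in the control arrays.

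Lce1l and Lce1g were below the median level of the array in both groups, at 139 against 79.5 and 123 against 83.5 in silenced against control arrays, and rose by 0.68 and 0.48 (adjusted p = 0.0185 and 0.0162). Lce1f did not pass (log2 difference 1.11, SE 0.35, adjusted p = 0.0619), with silenced array 3 below control 5 and the other 4 silenced arrays above both controls. The second Lce1f probe set, below the array median in both groups, differed by 0.48 and was not called (adjusted p = 0.0697). Lce3c read 4546, 3385, 3211, 5294 and 5144 in the silenced arrays, against 3672 and 1992 in the control arrays and did not pass (difference 0.64, 95% interval 0.061 to 1.22). Without control 6 the rises of Lce1a1, Lce1a2, Lce1b, Lce1d, Lce1g and Lce1l were not called (adjusted p = 0.106, 0.114, 0.0557, 0.114, 0.142 and 0.123), although their differences were still 1.32, 1.52, 1.62, 1.10, 0.42 and 0.68. Lce1g and Lce1l were not called without control 5 either, with differences of 0.54 and 0.68. Family members resemble each other in sequence. Of the 10 probe sets, 4 (Lce1d, Lce1h, Lce1i and Lce3c) carry the suffix that Affymetrix gives to sets open to cross-hybridisation. The second Lce1a1 probe set carries it as well. The values of the 10 genes may thus share signal and are uncertain one by one.

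The SPRR proteins bridge other envelope proteins, and 6 of their genes were measured among the members. There were 4 rises and no fall, and the median difference was 0.39. Sprr1a read 12963, 12953, 10721, 11811 and 12046 in the silenced arrays, against 10598 and 7200.1 in the control arrays (log2 difference 0.47, SE 0.13, adjusted p = 0.0373). Sprr1b rose by 0.21 (SE 0.055) (adjusted p = 0.0319). Sprr2i showed 1441, 1320.5, 856, 1215 and 1234 in the silenced arrays, against 882 and 468 in the control arrays (log2 difference 0.88, SE 0.24, adjusted p = 0.0383). Silenced array 3 lay just below control 5, so the groups overlapped in this gene. Sprr3 lay below the array median in both groups, at 203 against 151 in silenced against control arrays, and rose by 0.40 (adjusted p = 0.0139). Sprr2h (difference 0.39, 95% interval 0.10 to 0.67) and Sprr2d (difference 0.0076, 95% interval -0.40 to 0.41) did not pass. The size of all 4 rises depended on the control. Without control 6 the differences were 0.19 for Sprr1a, 0.11 for Sprr1b, 0.43 for Sprr2i and 0.22 for Sprr3, and none was called (adjusted p between 0.112 and 0.306). Without control 5 they were 0.74, 0.31, 1.32 and 0.58.

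**Figure D3:**
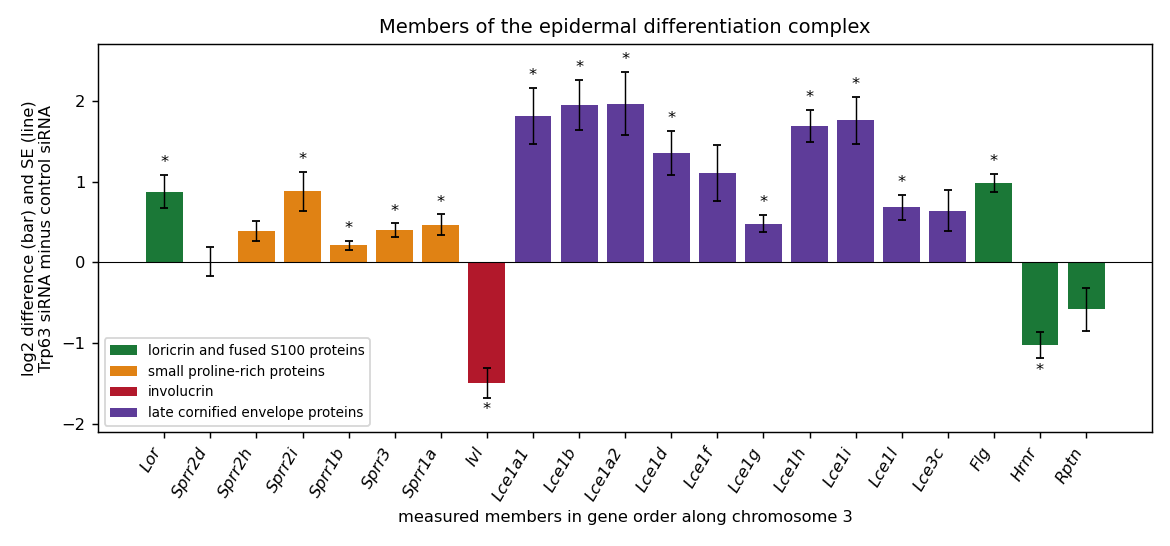
Log2 difference (bars) with its standard error (lines) for the 21 measured members of the epidermal differentiation complex in gene order along chromosome 3, from Lor to Rptn, with colours for families and stars where the test was passed. Ivl, at -1.49, stands between Sprr1a (0.47) and Lce1a1 (1.81), and Hrnr (-1.02) stands next to Flg (0.99).

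The epidermal differentiation complex held 21 measured members, with 14 rises, 2 falls and 5 genes short of the threshold. These counts stand beside 7.83% of all probe sets called higher and 8.16% called lower. Of the 14 rises, 8 were in LCE genes, whose probe sets may share signal. As in the whole set of members, the count of rises depended on the control used. In gene order along the chromosome, Ivl, which fell, had Sprr1a and Lce1a1, which both rose, as its nearest neighbours among the measured members. Hrnr fell beside Flg, which rose. The 10 measured LCE members formed 1 run of positive differences, from 0.48 to 1.96.

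Of the 3 enzymes that join and process the envelope, 1 rose, 1 fell and 1 was not called. Tgm1 encodes the membrane-bound transglutaminase that starts the cross-linking. It averaged 629 ± 90.4 (SD, n = 5) in silenced arrays against 470.1 ± 126 (SD, n = 2) in control arrays and did not pass (difference 0.42, 95% interval 0.053 to 0.79). Tgm3, a soluble transglutaminase of the late stage, read 164, 146, 153, 159 and 144 in the silenced arrays, against 193 and 200.2 in the control arrays (log2 difference -0.33, SE 0.059, adjusted p = 0.00566). Both groups lay below the array median, without overlap, and without control 6 the difference was -0.30 and was not called (adjusted p = 0.0678). Casp14, the gene of the protease that helps to break down filaggrin, read 1548, 1554, 1394, 1540.0 and 1610.1 in the silenced arrays, against 1372 and 995 in the control arrays (log2 difference 0.38, SE 0.11, adjusted p = 0.0495). The silenced arrays all lay above both controls, but control 5 came close to silenced array 3, and without control 6 the difference was 0.15 (adjusted p = 0.361). Cst6, which encodes the inhibitor cystatin E/M, read 3286, 2835, 1717, 2277 and 2201 in the silenced arrays, against 1909.5 and 968 in the control arrays and did not pass (log2 difference 0.81, SE 0.28, adjusted p = 0.0815). Control 5 lay above silenced array 3.

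Among genes of adhesion and of secreted suprabasal proteins, only Krtdap passed. Krtdap, which encodes a small secreted protein of differentiating keratinocytes, read 8248, 8143, 6528, 7594 and 7742 in the silenced arrays, against 11506 and 11366 in the control arrays (log2 difference -0.58, SE 0.078, adjusted p = 0.00123). Both controls agreed closely and lay above all silenced arrays. Dmkn, the gene of the secreted protein dermokine, did not pass (difference -0.044, 95% interval -0.13 to 0.041). Cdsn encodes corneodesmosin, the glue of the outermost desmosomes. It read 1725, 1609, 1001, 1448 and 1436 in the silenced arrays, against 1256 and 819 in the control arrays and did not pass (difference 0.48, 95% interval 0.0013 to 0.96). The desmosomal cadherin gene Dsc1 did not pass either (difference 0.11, 95% interval -0.32 to 0.54).

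The last 3 members did not pass. Lgals7, the gene of the epithelial lectin galectin-7, read 6332, 6382, 5153, 5025 and 5400.4 in the silenced arrays, against 7155 and 6837 in the control arrays (log2 difference -0.31, SE 0.10, adjusted p = 0.0569). Its silenced values all lay below both controls although the test was missed. Grhl1, a grainyhead-like transcription factor that acts in the upper epidermis, read 1252, 1506, 1138, 1115 and 1164 in the silenced arrays, against 1337 and 1331 in the control arrays (difference -0.12, 95% interval -0.37 to 0.13). Calml3, which encodes a calmodulin-like protein, differed by -0.035 (95% interval -0.24 to 0.17).

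Melanocyte level divided the arrays into sets that each held both groups. Silenced arrays 1 and 2 and control 5 were high, and silenced arrays 3, 4 and 7 and control 6 were low, with a gap of 0.38 in the mean log2 value of the 10 genes. These sets come from the data and are not the study's groups. Each set has 1 control, so differences within a set are given without a test, and a member whose groups do not overlap must keep its sign in both. The late members had a median difference of 0.56 in the high set and 0.68 in the low set, and the early members of -0.091 and 0.070. Over all probe sets the medians were -0.036 and -0.025. Ivl differed by -1.71 in the high set and -1.22 in the low set. Lce1b differed by 1.79 and 2.15, Lce1h by 1.20 and 2.11, and Flg by 0.73 and 1.24, each given high set first. Ppl was nearly the same in both, at 0.93 and 0.89. The sign was the same in both sets in 31 of the 35 members, compared with 74.0% of all probe sets. The 4 members that changed sign, none of them called, were Dsc1 (-0.29 and 0.44), Grhl1 (0.039 and -0.22), Scel (-0.14 and 0.17) and Sprr2d (-0.15 and 0.054).

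**Figure D4:**
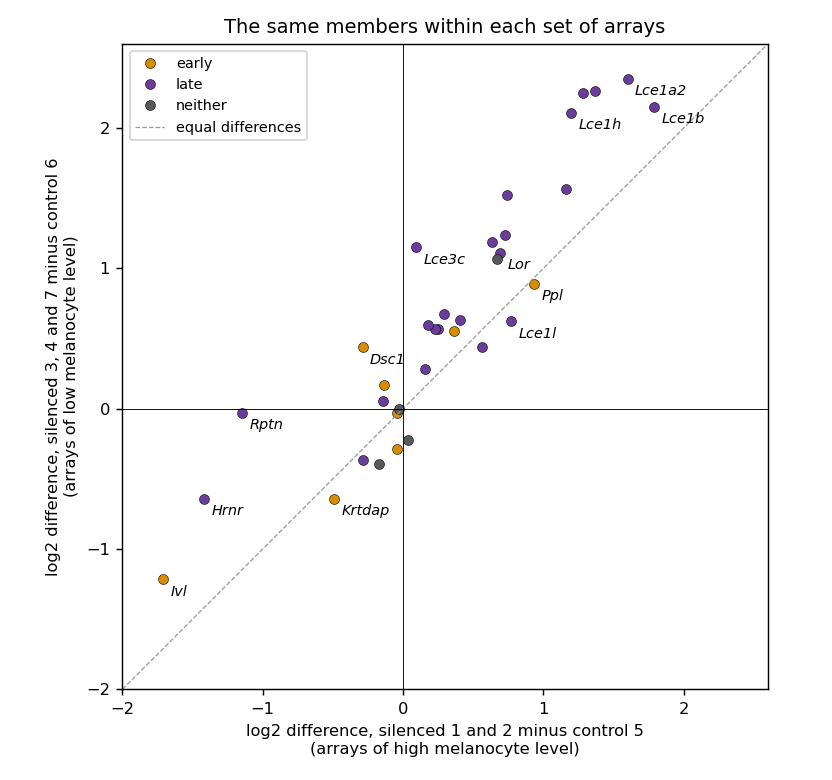
Log2 difference of each measured member in silenced arrays 1 and 2 minus control 5 (x axis) and in silenced arrays 3, 4 and 7 minus control 6 (y axis), coloured by stage, with a dashed line where both are equal. Of the 35 members, 27 had the more positive difference in the low set, against 53.7% of all probe sets. The sets use different controls, and control 5 read higher than control 6 in 33 of the 35 members. This count therefore cannot separate the sets from their controls.

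With melanocyte level as a block in the fit, 21 members rose and 5 fell, against 11.3% and 12.8% of all probe sets. Sprr2h, Lce1f, Tgm1, Cdsn and Cst6 then passed as higher (adjusted p = 0.00145, 0.0195, 0.00141, 0.0196 and 0.000815) and Lgals7 as lower (0.00244). Each level of this block holds 1 control, so much of the difference between the controls is not counted as spread. Without control 6, Sprr2h, Lce1f, Tgm1, Cdsn and Cst6 differed by 0.13, 0.58, 0.15, 0.18 and 0.33, and Lgals7 by -0.35. What else differs between the sets was not tested.

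Other genes of the envelope and of the barrier were read from lists chosen with earlier results of these data known. Over all probe sets 7.83% were called higher and 8.16% lower. With probe sets under the 50th percentile of mean intensity left out, these shares were 13.9% and 13.2%. Of 15 measured genes of the envelope and of the suprabasal cell outside the members, 4 rose and 4 fell, with a median of -0.026. Sprr2f, another SPRR gene, rose by 1.72 (SE 0.22), and the suprabasal keratin genes Krt77 and Krt80 by 1.56 (SE 0.18) and 1.15 (SE 0.14). The suprabasal keratin genes Krt1 and Krt10 of the same list fell, with differences of -1.79 (SE 0.34) and -1.53 (SE 0.22). Stfa3, a gene of the stefin protease inhibitors, fell to a mean of 3927 against 7689 in control arrays, a difference of -0.97 (SE 0.083). Of 34 measured regulators of differentiation, 7 rose and 4 fell, with a median of 0.050. The ETS factor gene Elf5 rose by 1.16 (SE 0.078) and the vitamin D receptor gene Vdr by 0.44 (SE 0.072), whereas the receptor gene Notch1 and the POU factor gene Pou3f1 fell, with differences of -1.31 (SE 0.12) and -0.91 (SE 0.14). Without control 6 Vdr differed by 0.37 and was not called (adjusted p = 0.0598).

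Proteases and lipid genes of the barrier had more rises than falls, while over all probe sets 7.83% were called higher and 8.16% lower. Of 18 measured proteases and inhibitors that process the envelope, 8 rose and 3 fell, with a median of 0.23. The kallikrein genes Klk8 and Klk10, whose proteases act in shedding of the surface, rose by 1.04 (SE 0.085) and 0.91 (SE 0.047), and the cathepsin genes Ctsd and Ctsl by 0.40 (SE 0.058) and 0.32 (SE 0.041). Of 20 measured genes of barrier lipids, 10 rose and 2 fell, with a median of 0.29. Degs2, for a ceramide-making enzyme, rose by 1.66 (SE 0.18) and the fatty acid transporter gene Slc27a4 by 0.87 (SE 0.13), while Elovl6 and Fabp5, of fatty acid elongation and binding, fell, with differences of -0.73 (SE 0.10) and -0.28 (SE 0.042). Only 3 lipid genes rose without control 6.

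Calls among markers of other cell types stand beside 7.83% of all probe sets called higher and 8.16% called lower. Of 15 measured fibroblast markers 2 rose, Col5a2 by 0.79 (SE 0.11) and Col1a1 by 0.44 (SE 0.071). The summed intensity of the fibroblast markers was 2679 to 3077 in silenced arrays and 2347 to 2685 in control arrays. Col6a2, a further collagen gene, read 282 against 259. Of 15 immune cell markers 2 rose, Cd14 by 0.52 (SE 0.081) and Cd68 by 0.60 (SE 0.15), and Tyrobp fell, with a difference of -0.20 (SE 0.045). The summed intensity of all 15 was 2417 to 2679 in silenced arrays and 2434 and 2530 in controls, which the silenced range spans. Without control 6 Col1a1, Cd68 and Tyrobp differed by 0.41, 0.38 and -0.19 and were not called (adjusted p = 0.0504, 0.226 and 0.112). The immune markers Csf1r and Cd3e, for a macrophage receptor and a T cell receptor subunit, read 438 against 455 and 284 against 324. The melanocyte genes Dct and Pmel read 3136 against 3101 and 2127 against 1872, and Tyr and Slc45a2, with the smallest p, differed by -0.35 and -0.15 (adjusted p = 0.247 and 0.542). No marker of these lists was at 0, and with no detection calls at hand a low value cannot be told from background. The part of these markers in the results was not tested.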

How the data were processed

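Total RNA was extracted with Trizol, made into biotinylated cRNA and hybridised to Affymetrix arrays, per the labels' protocols. The authors deposited 1 linear intensity per probe set and array. Probe summary, background correction and normalization are not given in the sources used here, and array medians were nearly equal, so the intensities were used as deposited. Of 22690 probe sets 64 controls were left out. Platform annotation gave 20380 probe sets 1 symbol, 691 several and 1555 none.

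Intensities became log2(intensity + 16), which understates the change of dim genes. Groups (5 and 2 arrays) were compared with limma 3.58.1 in R 4.3.3 (eBayes with a variance trend, Benjamini-Hochberg over 22626 probe sets, threshold 0.05), without a filter, and every adjusted p is limma's. On simulated data for this comparison (22626 probe sets), 46 of 50 changes of 0.5, 98 of 100 of 1 and 50 of 50 of 2 were recovered, with 14 false calls. The simulated probe sets varied independently of each other and with the same spread in both groups. The real controls differed from each other in many members together, so these counts check the code and do not measure the reliability of the real calls. Members and lists were chosen with earlier results of these data known. Every member may be named. Values on every array are given for up to 12 largest rises and falls and the brightest member of each role. Lists name up to 4 passing genes of smallest p, or 2 where none passed, and for other cell types the 2 brightest. The number of arrays limits the precision. Alternatives were quantile normalization, median centring, other pseudocounts (1, 64), dropping probe sets under the 25th or 50th percentile, other eBayes settings, array weights, other probe set rules, leaving out each array, and blocks or subsets by spike and melanocyte level.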

Additional observations from a re-analysis of the deposited data

Results flagged for a closer look

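In 67 genes the 5 silenced arrays were searched for a value far from the others, and 3 were found. Chance gives such a value in about 1 of 20 groups. Lor read 2728 in silenced array 3, below 3808 to 4345 in the other silenced arrays. Elf5 read 331 in silenced array 1, above 282 to 290 in the others. Cd14 read 224 in silenced array 2, below 261 to 277 in the others.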

How the results depend on the processing

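Leaving out each array in turn gave 4 to 19 members higher and 4 to 5 lower, with the lowest count of rises without control 6, which leaves 1 control that is assumed to vary like the silenced group. The median of the late members ran from 0.42 to 0.78, that of the early members from -0.15 to 0.13, and the Trp63 difference from -1.71 to -1.50. The counts higher and lower were 3 to 5 and 3 to 5 for other envelope genes, 3 to 7 and 2 to 6 for regulators, 8 to 8 and 1 to 5 for proteases and inhibitors, and 3 to 11 and 2 to 2 for barrier lipid genes. Of the 20 called members 6 kept their call under every alternative that gave a test for them (Ivl, Krtdap, Flg, Ppl, Lce1h and Lce1i). Lce1h, Lce1i and Ppl have no probe set without a suffix.

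Both controls were on the low side of the spike control split, so a spike block with both groups on both sides could not be run. A block with silenced arrays alone on the high side and the subsets of arrays were added after seeing the data. In the arrays of low spike level (silenced 1 and 4 and both controls) 10 members rose and 2 fell, against 2.37% and 1.09% of all probe sets, and the counts higher and lower were 1 and 1 for regulators, 5 and 0 for proteases and 4 higher for lipid genes. With the spike block 6 lipid genes rose and 0 proteases fell. The melanocyte sets have 1 control each and gave differences without calls: the early median was 0.070 in the low set, and the Trp63 difference -1.42 in the high and -1.76 in the low set. With the melanocyte block 5 proteases fell, and with array weights 6. With the filter at the 50th percentile 2 members and 1 lipid gene fell, against 13.2% of the probe sets kept, and the late median was 0.88, over fewer genes. With probe sets without a suffix alone, the early median was -0.12 and 2 other envelope genes fell.

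Of 791 member differences under 23 alternatives, 677 kept direction and call (or, without a test, moved less than the spread of the silenced arrays), 25 untested ones moved more, 19 gained and 48 lost a call, and 22 changed sign, all in members not called. Dsc1 was -0.058 with the spike block and in the low spike arrays and -0.29 in the high melanocyte set, Grhl1 was 0.039 there, Scel was 0.024 with the melanocyte block, 0.011 with median centring, 0.17 in the low melanocyte set and 0.0024 with quantile normalization, and Sprr2d was -0.040 with the melanocyte block, -0.0084 with the spike block and in the low spike arrays, and -0.15 in the high melanocyte set. Without single arrays, Calml3 ran from -0.14 to 0.065, Dsc1 from -0.064 to 0.29, Scel from -0.26 to 0.25 and Sprr2d from -0.16 to 0.17. Causes were not tested. No paired analysis was possible because the groups share no replicate number.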

Other observations

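The keratins of the first suprabasal layer, named after their values had been seen, fell. With both controls in the fit, 15 of the 23 late members rose, a count that depended on the control used. Krt1 read 1063, 1126, 415, 624 and 619.5 in the silenced arrays, against 2951 and 2178 in the control arrays (log2 difference -1.79, SE 0.34, adjusted p = 0.00761). Krt10, its partner in the filament, read 589, 643, 381, 388 and 413 in the silenced arrays, against 1619.9 and 1189.6 in the control arrays (log2 difference -1.53, SE 0.22, adjusted p = 0.00187). The groups did not overlap in either gene. Krt1 missed the threshold without control 5 (adjusted p = 0.0861), and Krt10 did not. Among proteases of the surface, Klk6, Klk7 and Prss8, also named after their values had been seen, rose by 1.90 (SE 0.33), 1.52 (SE 0.23) and 1.15 (SE 0.17), and each stayed called without either control.

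A further 3 regulators of the upper epidermis, named after their values had been seen, lay above both controls in all silenced arrays. Of the 34 measured regulators, 11 lay above both controls in all silenced arrays and 8 lay below both. This compares with 14.2% and 22.4% of all probe sets. Prdm1, the gene of the repressor Blimp1, read 575, 681, 384, 476 and 464 in the silenced arrays, against 275 and 147 in the control arrays (log2 difference 1.26, SE 0.24, adjusted p = 0.00785). Hopx, which encodes a homeodomain-only protein, rose by 0.91 (SE 0.20), and the ETS factor gene Elf3 by 0.84 (SE 0.18). Without control 6 they differed by 0.85, 0.46 and 0.67, and none was called (adjusted p = 0.0962, 0.0829 and 0.146).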
